A study of Mus musculus with 2 samples.

Results

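The 10 genes described here are 7 genes of the monocarboxylate transporter family (*Slc16a1*, *Slc16a3*, *Slc16a6*, *Slc16a7*, *Slc16a9*, *Slc16a10* and *Slc16a13*), some of which carry lactate and others other small molecules, the transporter partner *Bsg*, and *Ldha* and *Ldhb*, whose products interconvert lactate and pyruvate. They were picked by gene symbol with earlier results of these arrays known, and were measured by 18 of the 41164 probes and make up 10 of the 27790 genes on the arrays. Their values are therefore given as a description. The arrays compared the maternal mouse melanoma line B16F1-GFP-M with B16F1-GFP-D, a line derived from dormant melanoma cells, on 2 two-colour arrays with exchanged dyes. Both lines descend from B16F1, a melanoma of C57BL/6 mice, carry a transfected GFP gene and were grown untreated in DMEM with 10% serum. The B16F1-GFP-D line came from 1 colony of GFP-positive cells, sorted from pooled organs of immunised and control tumour-free mice a year after tumour challenge and then cloned, so it stands for a single clone. RNA was taken from growing cultures of both lines, not from cells resting in an organ, and the labels do not say whether the 2 arrays used the same or separate RNA extracts of each line. The arrays were therefore taken as a dye swap of 1 replicate per line and no test was run between the lines. The SD given below is the spread between the 2 arrays, which holds dye and hybridisation effects, and whether it also holds variation between cultures is not known. In such bulk RNA, a change in the share of cells that express a gene and a change in its RNA per cell cannot be told apart.

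Lactate dehydrogenase is a tetramer of A subunits, encoded by *Ldha*, and B subunits, encoded by *Ldhb*. A-rich forms predominate in skeletal muscle and in many glycolytic tumours, where pyruvate is reduced to lactate and NAD+ is regained for glycolysis, and B-rich forms predominate in heart, which can burn lactate. Lactate crosses the plasma membrane together with a proton through the monocarboxylate transporters MCT1 (*Slc16a1*), MCT2 (*Slc16a7*) and MCT4 (*Slc16a3*). MCT4 is known as the exporter of highly glycolytic cells, and *Slc16a3* and *Ldha* are known targets of hypoxia-inducible factor. Basigin, the product of *Bsg*, is the chaperone that MCT1 and MCT4 need to reach the cell surface.

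The promoter windows of the 2 genes with the largest ratios are shown first, with that of *Ldhb* beside them. Promoter windows, from RefSeq on GRCm38.p6, run from 250 bases before to 50 bases after a transcription start. They were searched for ACGTG, a common core of hypoxia response elements, on both strands, and matches are in capitals. A CACGTG, the E-box bound by MYC and MITF family factors, holds ACGTG on both strands and so counts as 2 matches. The window of *Slc16a3* lies at chr11:120948817-120949116 on the plus strand, that of the upstream *Ldha* start at chr7:46845554-46845853 on the plus strand, and that of *Ldhb* at chr6:142507908-142508207 on the minus strand.
Slc16a3: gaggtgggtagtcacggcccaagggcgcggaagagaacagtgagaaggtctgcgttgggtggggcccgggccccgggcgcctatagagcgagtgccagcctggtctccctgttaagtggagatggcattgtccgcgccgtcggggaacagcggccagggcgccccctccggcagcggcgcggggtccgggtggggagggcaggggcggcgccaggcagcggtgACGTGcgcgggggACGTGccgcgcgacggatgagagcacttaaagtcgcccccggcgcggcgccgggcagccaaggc
Ldha: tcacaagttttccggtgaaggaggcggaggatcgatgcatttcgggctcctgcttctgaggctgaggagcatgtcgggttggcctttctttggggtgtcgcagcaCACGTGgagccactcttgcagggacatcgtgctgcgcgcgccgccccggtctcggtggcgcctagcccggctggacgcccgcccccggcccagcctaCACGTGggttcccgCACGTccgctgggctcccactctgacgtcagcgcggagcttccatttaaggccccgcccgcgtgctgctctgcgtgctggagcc
Ldhb: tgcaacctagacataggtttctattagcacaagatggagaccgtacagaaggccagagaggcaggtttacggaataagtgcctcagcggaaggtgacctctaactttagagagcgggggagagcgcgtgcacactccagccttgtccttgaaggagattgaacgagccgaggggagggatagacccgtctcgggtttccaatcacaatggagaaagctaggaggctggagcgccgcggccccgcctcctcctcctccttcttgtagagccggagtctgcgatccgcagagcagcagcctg

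The *Slc16a3* window held 2 matches, neither within a CACGTG. The *Ldha* window held 5 matches, of which 4 came from 2 copies of CACGTG. A second *Ldha* window, at chr7:46846832-46847131, held no ACGTG, and neither did those of *Ldhb*, *Slc16a9* and *Slc16a10*. GCGTG, another form of this core, was not searched for. A window without ACGTG can still hold it, as that of *Ldhb* does. The window of *Slc16a1*, at chr3:104638414-104638713, held 3 matches, 2 of them from 1 CACGTG. RefSeq windows were at hand for 6 of the 10 genes, *Ldha* with 2. Over all 32851 windows, 19.6% held ACGTG on either strand and 7.15% held CACGTG. These matches describe the letters of the windows and no binding was measured. A link between matches and ratios was not tested.

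For a gene with several probes the brightest one was used, and the gene counted as detected when either line was well above background there on both arrays. It was called changed when its log2 ratio, B16F1-GFP-D relative to B16F1-GFP-M, was at least 1 in size, a 2-fold difference, with the same sign on each array. Of the 10 genes, 7 were detected, each of them in both lines and on both arrays. By this rule *Slc16a3* and *Ldha*, 2 of the 7, were higher in B16F1-GFP-D, and none was lower. Across all 12540 detected genes the rule called 630, or 5.02%, with 387 higher (3.09%) and 243 lower (1.94%). Since the genes were chosen with these ratios known, nothing is read from their count against that background. Ratios above 0 on both arrays were found for 5 of the 7, *Slc16a3*, *Ldha*, *Ldhb*, *Bsg* and *Slc16a1*, and ratios below 0 for *Slc16a6* and *Slc16a13*, against 41% and 42.8% of all detected genes. The median log2 ratio of the 7 was 0.51 and that of all detected genes -0.0081. With median centring of each array in place of loess, only 2 of the 7, *Slc16a3* and *Ldha*, were above 0 on both arrays and none was below 0 on both, but the mean ratio over both arrays kept its sign for all 7.

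**Figure D1:**
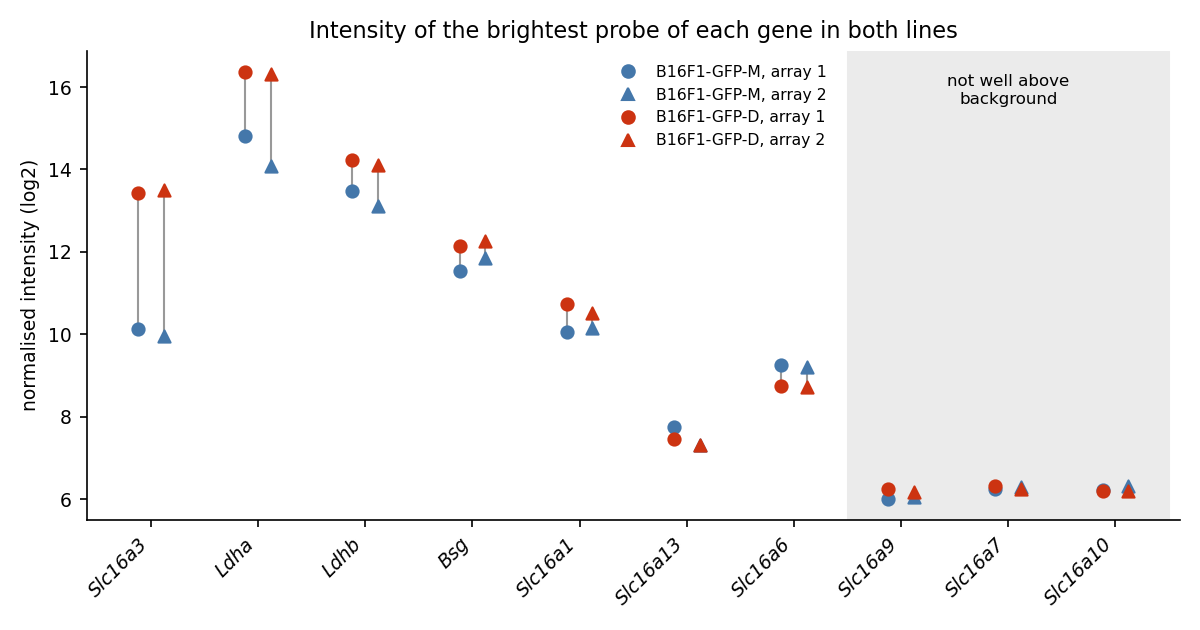
Normalised log2 intensity (vertical axis) of the brightest probe of each of the 10 genes in B16F1-GFP-M (blue) and B16F1-GFP-D (red), with circles for array 1, triangles for array 2 and a grey line joining the lines of 1 array. The gap is widest for *Slc16a3*, from 10.13 to 13.44 on array 1, and the 3 genes on the grey field were not well above background in either line; heights of different genes come from different probes and are not comparable.

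*Slc16a3* encodes MCT4, the low-affinity carrier used for lactate export. Its only probe lies at chr11:120820023-120820082 on the plus strand in mm9, the build named in the scanner files. The first 30 of its 60 bases are shown because this single probe carries the largest ratio of the 10 genes.
Slc16a3 probe: ctgggcagtggtctgttcaccctgagtccc
Its normalised log2 intensity was 10.13 in B16F1-GFP-M and 13.44 in B16F1-GFP-D on array 1, and 9.96 and 13.50 on array 2. Both B16F1-GFP-D values stood more than 3 log2 units above both B16F1-GFP-M values, and the lines did not overlap. The log2 ratio was 3.30 on array 1 and 3.54 on array 2, with a mean of 3.42 ± 0.17 (SD between 2 arrays), or 10.72-fold. The probe was bright enough to be measured in the lower line too: its signal over local background was 26.6 and 24.7 in B16F1-GFP-M and 280 and 340.4 in B16F1-GFP-D. Among the 12540 detected genes its mean ratio ranked 1 from the highest. That rank was 17 with the ratio of the scanner software and 6 with normexp at an offset of 0, where the ratio itself was 3.51 and 3.49. Under those 2 settings the same genes of the 10 were called, *Slc16a3* and *Ldha*, against 10.8% and 8.59% of all detected genes.

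*Slc16a1* encodes MCT1, the widely expressed carrier that moves lactate in either direction. The brightest of its 3 probes, at chr3:104460941-104461000, read 10.07 in B16F1-GFP-M and 10.73 in B16F1-GFP-D on array 1 and 10.16 and 10.51 on array 2, as normalised log2 intensity. B16F1-GFP-D was the higher line on both arrays by less than 1 log2 unit. The ratio was 0.66 and 0.35, with a mean of 0.50 ± 0.22, or 1.42-fold. A neighbouring probe gave 0.65 and 0.38 (mean 0.52), and the last, at chr3:104457083-104457142, gave 0.30 and 0.052 (mean 0.18). All 3 probes pointed the same way on both arrays, and none reached 2-fold on either. This last probe gave signals of only 2.39 to 4.31 times local background and is shown as the one with the smallest ratio.
Slc16a1 probe, last: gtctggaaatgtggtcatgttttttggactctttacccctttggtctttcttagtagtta

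The 2 lactate carriers had unequal ratios. The log2 ratio of *Slc16a3* exceeded that of *Slc16a1* by 2.65 on array 1 and 3.19 on array 2, with a mean difference of 2.92 ± 0.38, or a 7.56-fold larger fold change. Because both ratios were taken on the same arrays, their difference does not depend on a shift common to all probes of an array. It shows unequal change between the 2 genes and says nothing of their relative abundance in either line.

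*Bsg* encodes basigin, the partner that holds MCT1 and MCT4 at the plasma membrane. Its probe, at chr10:79173390-79173449, read 11.54 in B16F1-GFP-M and 12.15 in B16F1-GFP-D on array 1, and 11.85 and 12.27 on array 2. The values of the lines did not overlap, but the gap was small. The log2 ratio was 0.61 and 0.42, with a mean of 0.51 ± 0.14, or 1.43-fold. This was close to the ratio of *Slc16a1* and far from that of *Slc16a3*: the array values of *Bsg* and *Slc16a1* overlapped, whereas those of *Bsg* and *Slc16a3* lay more than 2 log2 units apart. The probe sequence is given because *Bsg* is the shared partner of both carriers.
Bsg probe: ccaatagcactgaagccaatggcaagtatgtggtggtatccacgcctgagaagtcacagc

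*Ldha* encodes the A subunit of lactate dehydrogenase and was measured by 2 probes. The brighter one, at chr7:54110889-54110948 on the plus strand in mm9, read 14.82 in B16F1-GFP-M and 16.36 in B16F1-GFP-D on array 1, and 14.09 and 16.31 on array 2. The B16F1-GFP-D values were nearly equal on the 2 arrays, the B16F1-GFP-M values differed more, and the lines did not overlap. The log2 ratio was 1.55 and 2.22, with a mean of 1.88 ± 0.48, or 3.69-fold, which ranked 43 from the highest among detected genes (184 with the ratio of the scanner software and 110 with an offset of 0). The second probe covered chr7:54109426-54110355, a span of 930 bases for a 60-base probe, so it bridges an intron and matches spliced RNA. It is shown because it reads other bases of the transcript than the brighter probe.
Ldha probe, second: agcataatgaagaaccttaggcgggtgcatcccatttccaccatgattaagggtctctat
It read 13.56 and 15.39 on array 1 and 13.27 and 15.32 on array 2, for B16F1-GFP-M and B16F1-GFP-D in turn. Its log2 ratio was 1.83 and 2.06, with a mean of 1.94 ± 0.16, or 3.84-fold, within 0.060 of the mean of the brighter probe. Both probes passed 2-fold on both arrays.

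The spread of the brighter *Ldha* probe was large beside the pooled SD between arrays, which was 0.15 over all detected genes and 0.25 over the 185 genes whose mean log2 intensity was at least 15. No spot of the arrays was marked as saturated. With median centring in place of loess, the brighter probe read 0.47 on array 1 and 4.05 on array 2, so *Ldha* was not called under that setting, while *Slc16a3*, with 2.26 and 4.97, was. Under it the median over all detected genes moved to -0.86 on array 1 and 1.02 on array 2, and only 0.51% of them were called. RefSeq lists 3 pseudogenes named for *Ldha* and 1 named for *Ldhb*, and whether the probes also bind their transcripts was not tested.

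*Ldhb* encodes the B subunit. Its single probe, at chr6:142438838-142438897 on the minus strand, read 13.47 in B16F1-GFP-M and 14.23 in B16F1-GFP-D on array 1 and 13.11 and 14.10 on array 2. B16F1-GFP-D was higher on both arrays, with no overlap between the lines. The log2 ratio was 0.76 and 0.99, with a mean of 0.87 ± 0.16, or 1.83-fold, below the 2-fold threshold on each array. At a threshold of 1.5-fold *Ldhb* joined *Slc16a3* and *Ldha*, at which 15.8% of all detected genes were called with 8.77% higher and 7.02% lower in B16F1-GFP-D.

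The ratio of *Ldha* exceeded that of *Ldhb* by 0.79 on array 1 and 1.23 on array 2, a mean difference of 1.01 ± 0.31, or 2.01-fold. With the second *Ldha* probe the difference was 1.07 on each array. Both subunits were higher in B16F1-GFP-D, and the A subunit by more with either of its probes.

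**Figure D2:**
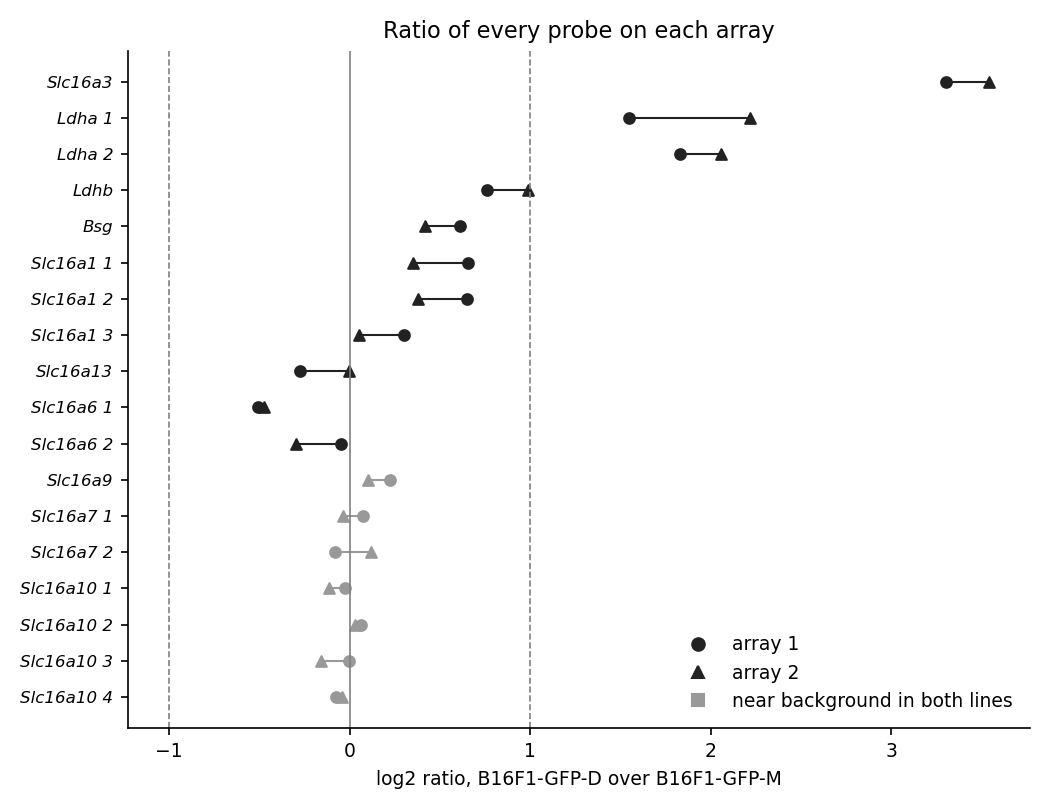
Log2 ratio, B16F1-GFP-D relative to B16F1-GFP-M (horizontal axis), for each of the 18 probes, with circles for array 1, triangles for array 2, a line joining the arrays and grey symbols for probes not well above background in either line; probes of 1 gene are numbered from the brightest and dashed lines mark 2-fold. The 3 probes of *Slc16a3* and *Ldha* lie beyond 2-fold on both arrays, and the 7 grey probes lie between -0.16 and 0.22.

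*Slc16a6* encodes MCT7, a carrier reported to export ketone bodies from liver. The brighter of its 2 probes, at chr11:109314058-109314117 on the minus strand, read 9.26 in B16F1-GFP-M and 8.76 in B16F1-GFP-D on array 1 and 9.20 and 8.72 on array 2. B16F1-GFP-M was the higher line on both arrays. The log2 ratio was -0.51 and -0.48, with a mean of -0.49 ± 0.022, or 1.41-fold lower in B16F1-GFP-D, and did not reach the threshold. The second probe gave -0.046 and -0.30, with a mean of -0.17, and was not well above background in B16F1-GFP-D on array 1.

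*Slc16a13* encodes MCT13, a transporter studied mainly in liver. Its probe, at chr11:70030650-70030709 on the minus strand, read 7.74 in B16F1-GFP-M and 7.46 in B16F1-GFP-D on array 1 and 7.32 in both lines on array 2. The lines differed on array 1 and were almost equal on array 2. The log2 ratio was -0.28 on array 1 and -0.0025 on array 2, with a mean of -0.14 ± 0.19, smaller than the spread between the arrays.

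*Slc16a7*, which encodes the high-affinity carrier MCT2, *Slc16a9*, which encodes a carnitine carrier, and *Slc16a10*, which encodes an aromatic amino acid carrier, were not well above background. This held for all 7 of their probes (2, 1 and 4) in both lines on both arrays, where their signals were 1.13 to 2.45 times local background. The log2 ratios of these probes on single arrays lay between -0.16 and 0.22, and no fold is given for them. Their RNA was not measurable at the sensitivity of these arrays, which does not show that it was absent.

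In the order of the ratios, *Slc16a3* came before *Ldha*, *Ldhb*, *Bsg*, *Slc16a1*, *Slc16a13* and *Slc16a6*. The array values of neighbours in this order overlapped only for *Bsg* and *Slc16a1*, which cannot be placed before or after each other. For the other neighbours the 2 arrays gave the same order, which covers array spread alone.

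**Figure D3:**
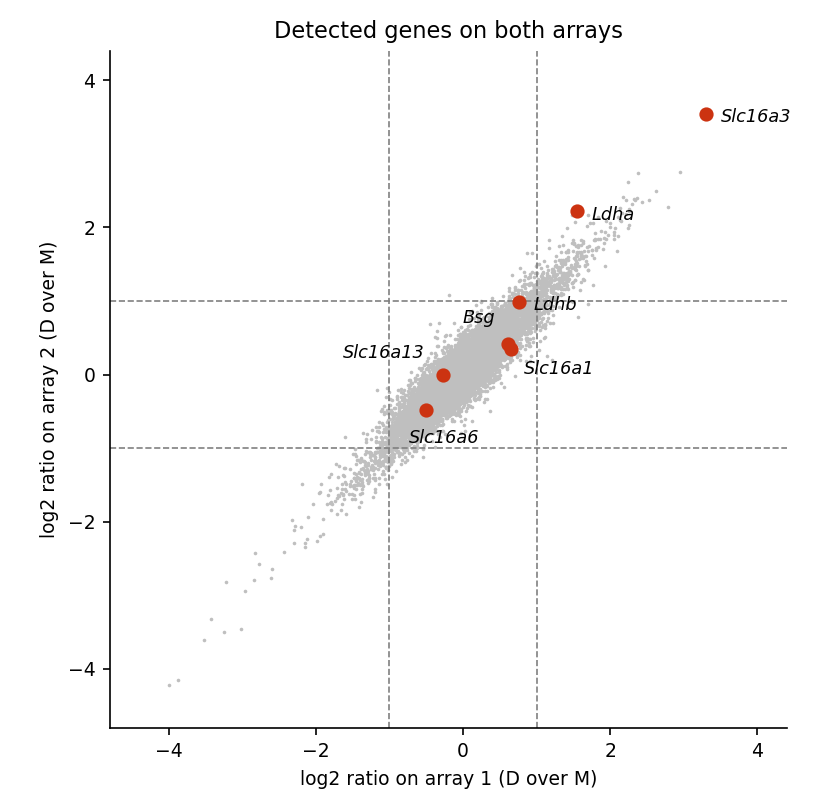
Log2 ratio, B16F1-GFP-D relative to B16F1-GFP-M, on array 1 (horizontal axis) against array 2 (vertical axis) for the 12540 detected genes (grey points), with the 7 detected genes described here in red and dashed lines at 2-fold. *Slc16a3* is the point farthest to the upper right, at 3.30 and 3.54, and *Ldha* lies above the main cloud, at 1.55 and 2.22.

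Across the arrays as a whole, 44.2% to 60.7% of spots were well above background per array and line, with a median signal of 1.66 to 2.60 times local background, and the ratios of detected genes correlated between the arrays with r = 0.93 across genes, which are not independent replicates. All 10 melanocyte markers were detected in these melanoma lines and none was called, with 3 above 0 and 5 below 0 on both arrays and a median log2 ratio of -0.14, which turned to 0.18 with median centring. Their mean ratios ran from -0.92 for *Mitf* to 0.53 for *Gpnmb*, and the 2 probes of *Dct* gave -0.78 and -0.026. Because host cells were present in the organs from which B16F1-GFP-D was taken, markers of other cells were read too. Of the 7 fibroblast markers 2 were detected (*Col1a1* with 0.40 and *Col1a2* with -0.33), of the 7 leukocyte markers 3 (among them *Cd68* with 0.44 and *Lyz2* with -0.11), of the 4 brain markers 2 (*Mbp* with -0.13 and *Gfap* with -0.094), and of the 4 endothelial and 3 liver markers none. No marker of these lists was called, but with the ratio of the scanner software 1 fibroblast and 1 leukocyte marker were called higher in B16F1-GFP-D, as *Col1a1* read 1.97 and *Cd68* 1.68. In B16F1-GFP-D both exceeded background on both arrays, in B16F1-GFP-M on array 1 only, the other 2 probes of *Col1a1* were not detected, and the part of such cells in the results was not tested.

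The genes around the lactate step were read from lists that were also chosen with earlier results known. Among the 7 other members of the SLC16 family only *Slc16a8*, which encodes MCT3 of the retinal pigment epithelium, was detected. Its mean log2 ratio was 0.026 and turned to -0.14 with the ratio of the scanner software. The *Slc16a8* probe was well above background on both arrays in B16F1-GFP-M only. In B16F1-GFP-D its log2 intensity was 6.35 and 6.67, so little can be read from its ratio. None of the 3 genes for sodium-coupled lactate carriers and the lactate receptor was detected. The relatives of basigin were both detected and neither was called. *Emb*, which encodes embigin, the alternative partner of MCT1 and the partner of MCT2, had log2 ratios of -0.92 and -0.69, with a mean of -0.81 ± 0.16, with -0.91 for the mean of its second probe, whereas *Nptn*, which encodes neuroplastin, had a mean of 0.18 ± 0.22. The ratios of *Emb* and *Bsg* had opposite signs on both arrays, and as means over the arrays also with median centring, which gave -0.67 and 0.73. Of the 3 other lactate dehydrogenase genes only *Ldhd*, which encodes the enzyme for D-lactate, was detected, with 0.47 ± 0.21.

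Glycolysis, which feeds pyruvate to lactate dehydrogenase, and glucose uptake were represented by 20 genes, all detected. The list holds glucose transporters and regulators of glycolysis besides its enzymes. Of the 20, 8 were called higher in B16F1-GFP-D and none lower, against 3.09% called higher over all detected genes. On both arrays 17 were above 0 and 2 were below 0, *Pfkfb3* with a mean of -0.77 and *Slc2a3* with -0.58. The other probes of *Pfkfb3* gave -0.45 and -0.12, and those of *Slc2a3* were not detected. The median log2 ratio of the 20 was 0.89, against -0.0081 over all detected genes. With median centring 1 of the 20 was called, 8 were above 0 on both arrays and the median of their mean ratios was 1.21. The largest 3 ratios were those of *Pfkp*, the platelet form of phosphofructokinase, with 2.39 ± 0.059, *Pgam1*, a phosphoglycerate mutase, with 1.85 ± 0.23, and *Hk1*, a hexokinase, with 1.72 ± 0.13. The other 2 probes of *Pfkp* gave 1.74 and 0.74. The other detected probes of *Hk1* gave 1.59, 1.12, 1.12 and 0.61. The array values of *Ldha* (1.55 and 2.22) overlapped those of *Pgam1* (1.68 and 2.01), so these cannot be ordered, while those of *Slc16a3* exceeded all 20 on both arrays.

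Pyruvate that enters the mitochondrion was represented by 16 genes, of which 15 were on the arrays and 13 detected. None was called in either direction, and the median log2 ratio was 0.15. *Mpc1* and *Mpc2*, whose products form the mitochondrial pyruvate carrier, had means of 0.026 ± 0.14 and 0.34 ± 0.056, the former with opposite signs on the 2 arrays. *Pdk1*, whose product inhibits pyruvate dehydrogenase, had 0.99 on array 1 and 1.24 on array 2 and so just missed the threshold, and its second probe gave 1.75 and 1.83. *Gpt2*, which encodes the mitochondrial alanine transaminase, had -1.16 and -0.998, the latter just short of the threshold. Both *Pdk1* and *Gpt2* were past the threshold with an offset of 0, without background subtraction and with the ratio of the scanner software.

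Lactate leaves the cell with a proton, and 7 of 9 genes of proton and bicarbonate handling were detected, with a median log2 ratio of -0.022 (0.17 with median centring). The only one called was *Car9*, which encodes the cell-surface carbonic anhydrase IX, a known hypoxia target, with 1.13 and 1.21 (mean 1.17 ± 0.055). With median centring none of the 7 was called. *Car2*, the cytosolic carbonic anhydrase II, had 0.54 and 0.80. It was called beside *Car9* with an offset of 0 and with the ratio of the scanner software. The *Car2* probe was well above background on both arrays in B16F1-GFP-D only. In B16F1-GFP-M its log2 intensity was 6.56 and 6.60. Of 12 genes listed as possible regulators of lactate genes 11 were detected, with a median of -0.14 (0.051 with median centring). Whether they act on the genes described here was not tested. The only listed regulator called was *Ppargc1a*, which encodes the coactivator PGC-1α. Its log2 intensity was 8.60 in B16F1-GFP-M and 10.98 in B16F1-GFP-D on array 1 and 8.41 and 11.15 on array 2, for a ratio of 2.38 and 2.74 (mean 2.56 ± 0.25), and its second probe gave 2.67. *Myc*, named here after its values were seen, just missed the threshold with -0.98 and -1.17 (mean -1.07 ± 0.13, 2.10-fold lower), and was the 1 regulator called lower with an offset of 0 and with the ratio of the scanner software. Its other 2 probes gave -0.69 and -0.25. *Hif1a*, which encodes an oxygen-regulated subunit of hypoxia-inducible factor, had 0.30 and 0.10 (mean 0.20 ± 0.14). *Epas1*, which encodes another such subunit, had 0.57 and 0.73 (mean 0.65 ± 0.11), and its other probes were not detected. *Arnt*, which encodes the partner of both subunits, went the other way with -0.11 and -0.32 (mean -0.22 ± 0.15). Its other detected probes gave -0.34 and -0.19. None of these genes was called. These are RNA ratios, and HIF-1α is known to be set mainly by the stability of the protein, which was not measured.

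**Figure D4:**
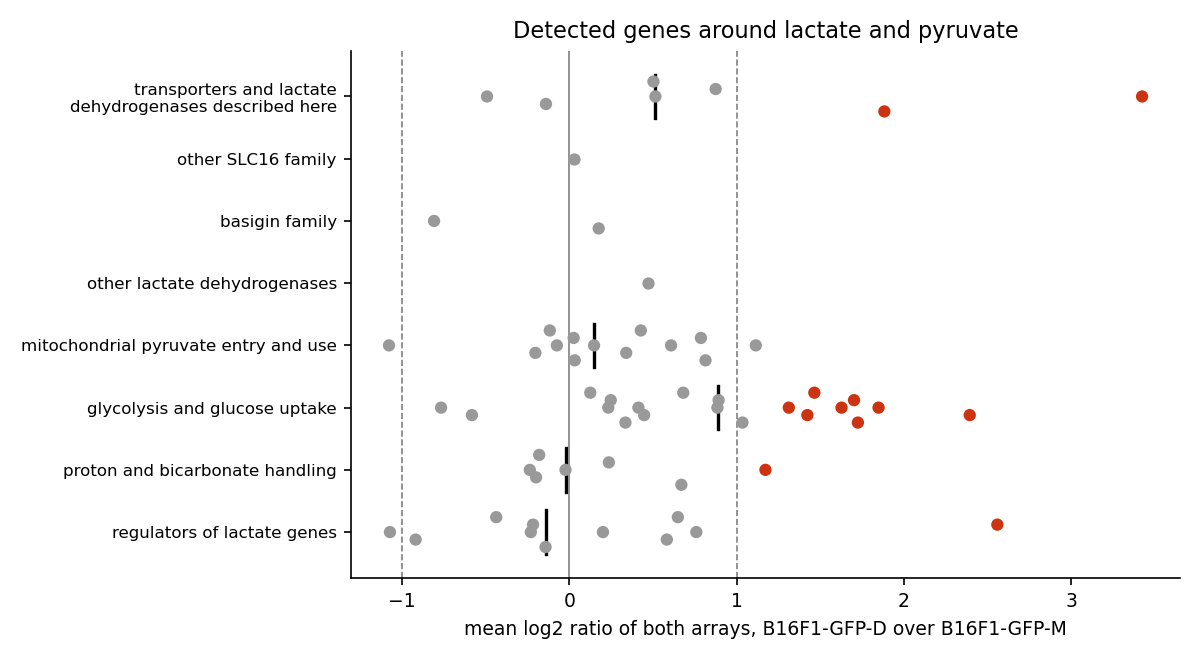
Mean log2 ratio of both arrays (horizontal axis) of each detected gene, by list (rows), with genes past 2-fold on both arrays in red, others in grey and a black bar at the median of lists of more than 2 genes; dashed lines mark 2-fold and the vertical position within a row has no meaning. The list of glycolysis and glucose uptake has 8 red points and a median of 0.89. The other lists besides that of the transporters and lactate dehydrogenases have at most 1.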

How the data were processed

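RNA of the 2 lines was hybridised to 2 Agilent two-colour arrays of 1 slide. On array 1 B16F1-GFP-M was labelled with Cy5 and B16F1-GFP-D with Cy3, and on array 2 the dyes were exchanged. The deposited scanner files hold per-spot intensity, local background and flags, made by the authors with Agilent Feature Extraction 10.7.3.1 per the submitters' processing notes, and the deposited log10 ratio of Cy5 over Cy3, which was used only as an alternative. The deposited p-value column of the software's own comparison of the dyes was not used. The series value table held the same log10 ratios, not turned for the dye swap, to within 0.005, and the median of either column was 0.

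Mean signals were corrected with normexp (offset 50) on the median local background and normalised by loess within each array (limma 3.58.1, R 4.3.3), with outlier spots left out (143 on array 1 and 176 on array 2) from 43379 spots of 41174 probes. Spots of a probe were averaged, the ratios of both arrays were turned to the same direction (B16F1-GFP-D relative to B16F1-GFP-M), and the brightest probe stood for its gene. A probe counted as well above background where at least 0.5 of its spots were. Accessions of 28075 probes were looked up in RefSeq on GRCm38.p6, of which 27198 matched and 2694 took a new symbol, while probe coordinates are in mm9 as in the scanner files. Promoter sequences are those of RefSeq and probe sequences those of the scanner files.

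The labels do not say whether the 2 arrays share RNA extracts. They were taken as a dye swap of 1 replicate per line, and calls followed a rule of size without a test, so the small number of arrays limits the precision. A lower bound was planned for genes near background in only 1 line, and none of the 10 was. The 10 genes, the 8 lists of related genes, the 6 marker lists and the tests were chosen with earlier results of these data known. Besides the 10 genes, the text names up to 3 called genes in each direction of a list, or the 2 largest ratios where none was called, and *Ppargc1a*, *Hif1a*, *Mpc1* and *Mpc2*. *Myc*, *Car2*, *Gpnmb*, *Epas1*, *Arnt*, *Pfkfb3* and *Slc2a3* were added after their values were seen. The normalisation and the rule of size were also run on simulated arrays with 200 changed probes, from which nothing is read here. As alternatives, background was left in or corrected with an offset of 0, loess was replaced by median centring or followed by Aquantile scaling, values came from the software's ratio or from the series value table, and dim probes were kept or filtered more strictly. A gene was also read as the median of its probes and from each array alone, and other fold thresholds were used.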

Additional observations from a re-analysis of the deposited data

How the results depend on the processing

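The count of 2 called genes became 1, *Slc16a3* alone, with median centring, at 3-fold and at 4-fold. The median log2 ratio of the detected genes was 0.73 with median centring and 0.33 when the 3 genes near background were kept. Each array alone gave 2 called genes, a median of 0.42 to 0.66, a difference of 2.65 to 3.19 between *Slc16a3* and *Slc16a1*, and one of 0.79 to 1.23 between *Ldha* and *Ldhb*. These 2 differences moved by less than the SD between arrays under the other alternatives, of which Aquantile scaling leaves ratios unchanged by construction. The 7 detected genes kept the sign of their mean ratio in all, whereas *Slc16a7*, *Slc16a9* and *Slc16a10*, near background, took the other sign in 1, 2 and 2 alternatives. Median centring put the median over all detected genes at -0.86 (array 1) and 1.02 (array 2), or 0.067 as the mean ratio. On each array the line labelled with Cy5 was thus the higher, B16F1-GFP-M on array 1 and B16F1-GFP-D on array 2. The cause was not tested.

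No paired analysis was possible because the arrays were taken as 1 replicate per line. Both arrays share 1 slide, so slide could not be fitted as a block. Signal over background limits what can be said of the 3 genes near background, and variation between cultures could not be estimated.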
